A study of Homo sapiens with 8 samples.

Results

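The nuclear genes for the proteins of the mitochondrial ribosome moved by small amounts and in both directions when human embryonic stem cells (hESCs) were given an antibody that blocks MFGE-8. MRPS16 fell most, to 0.80 log2 units below control IgG at 24 h, while MRPS33, MRPS24 and MRPL46 were the genes that rose most at both times. The genes were taken by symbol: MRPL or MRPS followed by a number and, where present, a letter from A to C. This rule found 78 of the 62086 genes in the tables, and all 78 had enough reads to be tested. Neither the rule nor the symbols use a measured value.

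The mitochondrial ribosome (mitoribosome) translates the mRNAs that are transcribed inside mitochondria, which encode core subunits of the respiratory chain complexes and of ATP synthase. Its rRNAs come from the mitochondrial genome, but its proteins are encoded in the nucleus, made by cytosolic ribosomes and imported. Some of the proteins descend from bacterial ribosomal proteins, and others are found only in mitochondrial ribosomes, where they cover or replace shortened rRNA. Nuclear respiratory factor 1 (NRF1), GABP, a factor of the ETS family, and YY1 are known to bind the promoters of many nuclear genes for mitochondrial proteins.

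The cells were BG01, an established hESC line that is grown in mTeSR medium without feeder cells. They were treated with 5 µg/mL anti-M8nAb, a mouse antibody that neutralizes the secreted glycoprotein MFGE-8, for 12 h or 24 h, or with 5 µg/mL normal mouse IgG for the same times. Each of the 4 groups has 2 libraries, labelled as biological replicates, and every p-value here therefore rests on the spread between libraries of 1 cell line. RNA was sequenced from the whole culture, in which fewer cells of a type and less RNA per cell cannot be told apart. Each library held 21010400 to 21792716 counts over genes. The scaling factors by the trimmed mean of M-values (TMM) were 0.966 to 0.979 in anti-M8nAb libraries and 1.01 to 1.043 in IgG libraries. The 9 markers of pluripotent cells, POU5F1, NANOG and SOX2 among them, were expressed in every group, with summed levels of 7478 to 7515 CPM (counts relative to the TMM-scaled library size) with anti-M8nAb at 12 h, against 6849 to 7008 CPM with IgG. At 24 h the sums were 6625 to 6814 CPM with anti-M8nAb and 6207 to 6232 CPM with IgG. Of 11 markers of early lineages, 6 had enough reads to be tested, and SOX17 and HAND1 had at most 2 and 4 counts in a library. All 11 summed to 7.17 and 9.50 CPM with anti-M8nAb at 12 h, against 3.41 and 5.11 CPM with IgG. At 24 h they summed to 4.92 and 4.24 CPM with anti-M8nAb and to 7.11 and 6.26 CPM with IgG. Of 7 fibroblast markers, DCN and LUM had at most 12 and 6 counts in a library, and the sum was carried by THY1, which hESCs also express, with 545 to 580 CPM in all with anti-M8nAb at 12 h, against 508 to 509 CPM with IgG. At 24 h the fibroblast markers summed to 653 to 678 CPM with anti-M8nAb and 576 to 596 CPM with IgG. The part of these shifts in the results below was not tested.

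Promoter sequence was at hand for 69 of the 78 genes, as RefSeq windows on GRCh38.p14 from 250 bases before to 50 bases after the transcription start. The ETS core CCGGAAG, read on either strand, lay in 29 of the 69 windows (42.0%), against 10.7% of all 27305 promoters and 17.7% of the 11682 promoters of protein-coding genes tested. The YY1 core AAGATGGC lay in 20 windows (29.0%), against 3.03% of all promoters and 4.92% of those of protein-coding genes tested. The NRF1 core CGCATGCG lay in 3 windows (4.35%, against 2.19% and 3.51%), and its looser form GCGCANGCG, which can overlap it, in 13 (18.8%, against 8.05% and 13.7%). A match to these letters is a description of the window and no evidence of binding. The stretches below run from 100 bases before to 30 bases after the start of 5 genes and are written in the direction of transcription, with matches to the ETS, YY1 and NRF1 cores in capitals and the looser NRF1 form not marked. At 24 h MRPS16 fell most, MRPS33 and MRPS24 rose most and MRPL36 fell, and MRPL17, which also fell at 24 h, has the NRF1 core 2 times.

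MRPS16 (chr10:73252615-73252744, minus strand): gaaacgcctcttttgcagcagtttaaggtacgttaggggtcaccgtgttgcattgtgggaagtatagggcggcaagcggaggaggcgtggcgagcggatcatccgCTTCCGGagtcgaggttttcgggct
MRPS33 (chr7:141014923-141015052, minus strand): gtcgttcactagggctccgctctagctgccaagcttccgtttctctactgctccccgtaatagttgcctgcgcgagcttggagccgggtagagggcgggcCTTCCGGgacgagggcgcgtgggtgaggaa
MRPS24 (chr7:43869488-43869617, minus strand): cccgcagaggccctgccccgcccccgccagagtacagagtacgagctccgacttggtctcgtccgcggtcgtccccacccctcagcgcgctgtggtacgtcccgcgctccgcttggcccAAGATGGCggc
MRPL36 (chr5:1799808-1799937, minus strand): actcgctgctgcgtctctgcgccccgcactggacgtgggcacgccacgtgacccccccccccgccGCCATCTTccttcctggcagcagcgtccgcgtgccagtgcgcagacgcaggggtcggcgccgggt
MRPL17 (chr11:6683311-6683440, minus strand): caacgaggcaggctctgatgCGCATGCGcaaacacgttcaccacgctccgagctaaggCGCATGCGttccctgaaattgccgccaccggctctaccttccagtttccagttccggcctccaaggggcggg

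The gene with the largest fall and the gene with the largest rise at 24 h thus both have the ETS core next to the start, written here from the other strand as CTTCCGG, and the YY1 core lies near the start of MRPS24, which rose, and of MRPL36, which fell. Over the 69 genes, those with the ETS core had a median log2 fold change of 0.06 at 12 h and -0.01 at 24 h, and those without it 0.05 and 0.04. With the YY1 core the medians were 0.07 and -0.04, and without it 0.04 and 0.04. Of the 3 genes with the NRF1 core, 2 fell and 0 rose at 24 h, and of the 66 without it 15 fell and 12 rose. Of the 13 genes with the looser form, 4 fell and 3 rose at 24 h, with a median of 0.04. Of the 56 without the looser form, 13 fell and 9 rose. Over all genes tested, 21.3% fell and 21.2% rose at 24 h.

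At 12 h, 20 of the 78 genes were higher with anti-M8nAb than with IgG and 8 were lower at an adjusted p under 0.05 (two-sided quasi-likelihood F test of edgeR with Benjamini-Hochberg adjustment over 20165 genes), and 50 did not pass. These were 25.6% and 10.3% of the genes, against a background of 15.8% of all tested genes higher and 16.4% lower. At 24 h, 15 were higher and 18 lower, which is 19.2% and 23.1%, against 21.2% and 21.3% of all tested genes, and 45 did not pass. None of the 78 reached a 2-fold change at either time, called or not. Among all 20165 tested genes, 1932 did so at 12 h and 2488 at 24 h. Of the 12316 protein-coding genes within the level range of the 78, 543 and 896 did so. The log2 fold changes ran between -0.48 and 0.50 at 12 h, with a median of 0.07, and between -0.80 and 0.64 at 24 h, with a median of 0.04, and the median standard error (SE) was 0.076. Over all tested genes the median was 0.00 at both times. Both anti-M8nAb libraries lay above both IgG libraries in 39 genes and below them in 24 at 12 h, and above them in 26 and below them in 27 at 24 h. Among all 20165 tested genes they lay above in 6644 and below in 6721 at 12 h, and above in 7014 and below in 6906 at 24 h. The plot of every gene's fold change shows points on each side of 0 in both subunits.

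**Figure D1:**
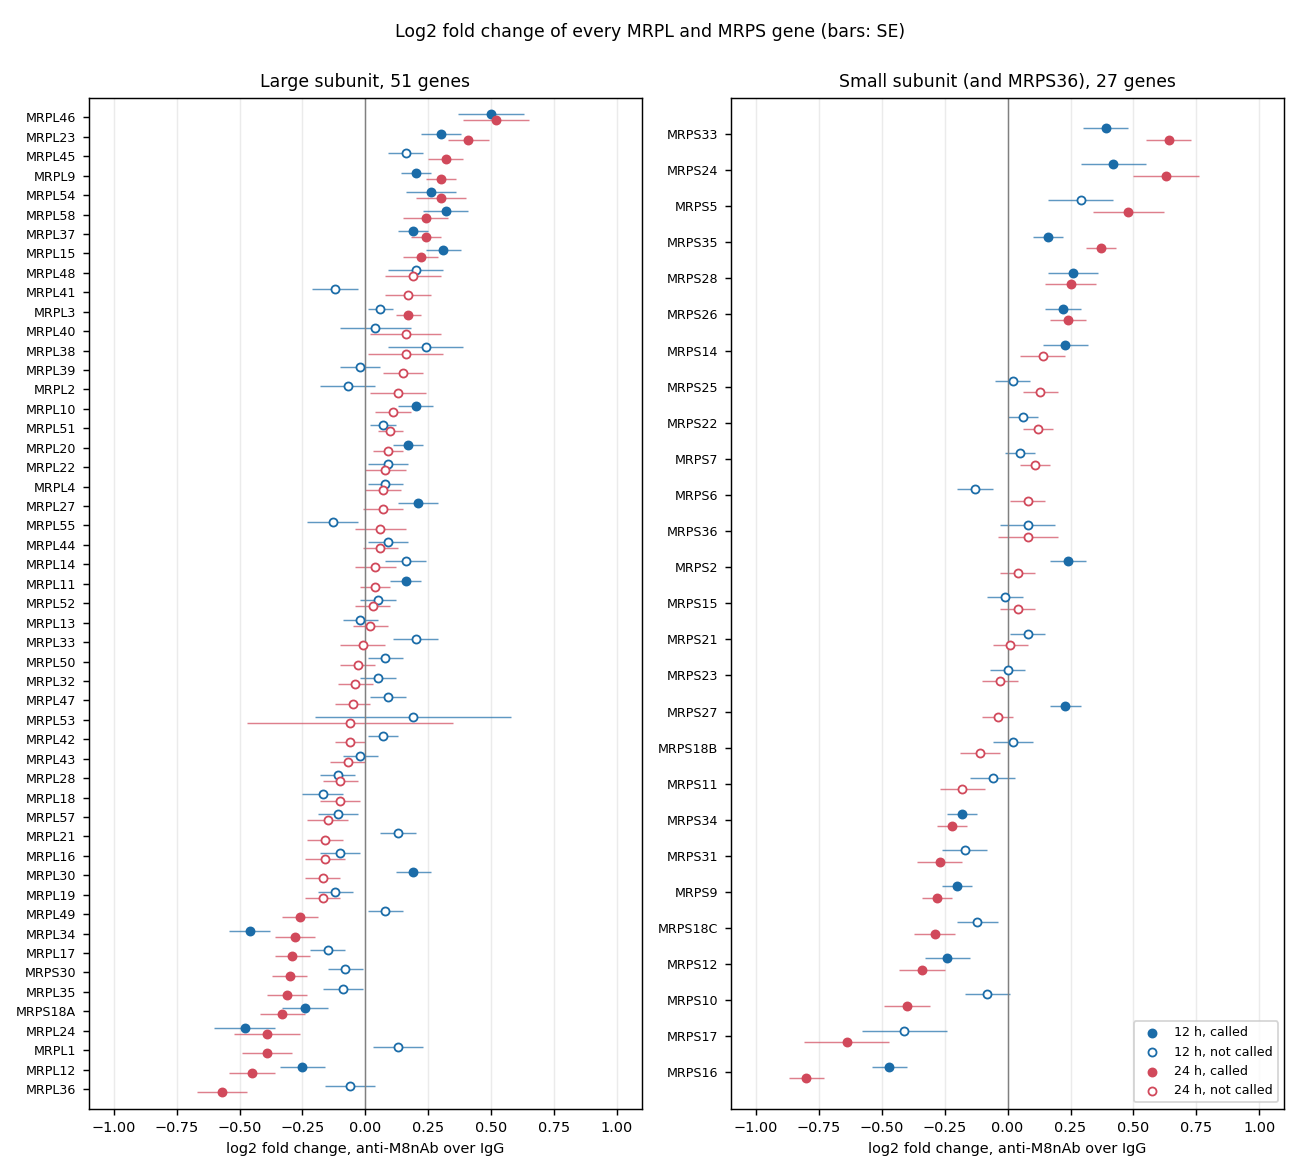
Each row is 1 gene. The horizontal axis is the log2 fold change of anti-M8nAb over IgG, blue at 12 h and red at 24 h, with bars of 1 SE, and filled points passed an adjusted p of 0.05. Genes are ordered by their value at 24 h within the large subunit (51 genes, left) and the small subunit with MRPS36 (27 genes, right), and run from -0.80 for MRPS16 to 0.64 for MRPS33.

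The calls at 12 h depended on single libraries. Without IgG 12 h replicate 1, 3 genes were higher and 4 lower, while the share of all tested genes called was 9.66% higher and 10.4% lower. Without IgG 12 h replicate 2 the counts were 10 and 3, against 10.2% and 10.3% of all tested genes. Without anti-M8nAb 12 h replicate 1 they were 14 and 3, against 11.7% and 12.1%, and without anti-M8nAb 12 h replicate 2 they were 8 and 6, against 11.6% and 11.6%. Without IgG 12 h replicate 1, MRPL9, MRPL12, MRPL23, MRPL30, MRPL37, MRPL46, MRPL58, MRPS2, MRPS12, MRPS18A, MRPS24, MRPS26, MRPS34 and MRPS35 were among the calls lost at 12 h. MRPS9 and MRPS27 were lost at 12 h without IgG 12 h replicate 2. When any 1 library was left out, the median log2 fold change of the 78 genes at 24 h lay between -0.01 and 0.04. At 24 h, MRPL15, MRPL24 and MRPL58 were lost without anti-M8nAb replicate 2, MRPS5 and MRPS26 without IgG replicate 1, and MRPL3, MRPL58, MRPS12, MRPS18A and MRPS34 without IgG replicate 2. On the authors' FPKM, which are not scaled by TMM, limma on log2(FPKM + 1) called 8 rises and 10 falls at 12 h, and 8 rises and 25 falls at 24 h, so the split between the directions moved with the scale. The split over all genes moved as well, to 9.08% higher and 16.9% lower at 12 h and 13.7% and 25.3% at 24 h. On that scale the median of all genes itself lay at -0.04 at 12 h and -0.07 at 24 h, and the median of the 78 genes at 0.00 and -0.05.

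Summed over the 78 genes, the level was 5372 and 5485 CPM with anti-M8nAb at 12 h, against 5270 and 5259 CPM with IgG. At 24 h it was 4967 and 5087 CPM with anti-M8nAb and 4984 and 5026 CPM with IgG. The sums differed by 3.12% at 12 h, with no overlap, and by 0.433% at 24 h, where the libraries overlapped. Over all tested genes the summed CPM changed by 4.27% at 12 h and 6.25% at 24 h. In FPKM, which divide by gene length and are not scaled by TMM, the sums of the 78 genes at 12 h were 2253 and 2339 with anti-M8nAb, against 2351 and 2328 with IgG. At 24 h they were 2157 and 2196 with anti-M8nAb, against 2248 and 2338 with IgG. These are changes of -1.85% and -5.06%, so the direction of the sum was not the same on the 2 scales. Per length the genes spanned a wide range of levels. MRPL51, a large-subunit protein, was the most abundant at a mean of 183 FPKM over the 8 libraries, followed by MRPS34 at 126, MRPS26 at 99.7, MRPL3 at 88.4 and MRPL41 at 70.2 FPKM. MRPS5 at 1.05, MRPL53 at 1.93 and MRPL46 at 1.95 FPKM were the lowest, and the median gene was at 20.7 FPKM. MRPL51 itself did not pass the test at either time, with log2 fold changes of 0.07 and 0.10. MRPL53 had as few as 18 counts in a library and overlaps genes on the opposite strand over 79.4% of its exons and on its own strand over 72.8%, so its values (0.19 with SE 0.39 at 12 h, -0.06 with SE 0.41 at 24 h) are the least certain of the 78.

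In the small subunit, 8 of 26 genes rose (30.8%) and 4 fell (15.4%) at 12 h, against 15.8% and 16.4% of all tested genes. At 24 h 6 rose (23.1%) and 8 fell (30.8%), against 21.2% and 21.3% of all tested genes. MRPS16, the homologue of bacterial protein S16, a protein that is mutated in an inherited deficiency of mitochondrial translation, had the largest fall in this subunit. Its level was 74.7 and 79.8 CPM with anti-M8nAb at 12 h, against 108 and 107 CPM with IgG, and 54.4 and 51.0 CPM with anti-M8nAb at 24 h, against 92.1 and 92.1 CPM with IgG. The groups did not overlap at either time, and all 4 anti-M8nAb libraries lay below all 4 IgG libraries. The log2 fold changes were -0.47 (SE 0.07, edgeR adjusted p = 1.67e-07) and -0.80 (SE 0.07, edgeR adjusted p = 1.9e-13), a call that was kept in each of 20 alternative settings at both times. MRPS16 lies on chromosome 10 of GRCh38 from 73248843 to 73252693, minus strand, and 14.1% of its exon sequence overlaps DNAJC9-AS1 on the other strand, whose reads cannot be told apart from its own where strand is not used in counting.

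Other small-subunit homologues of bacterial proteins fell too. MRPS9, the homologue of S9, had 96.8 and 101 CPM with anti-M8nAb at 12 h, against 112 and 116 CPM with IgG, and 86.3 and 96.1 CPM with anti-M8nAb at 24 h, against 110 and 112 CPM with IgG. MRPS10, the homologue of S10, had 42.1 and 42.8 CPM with anti-M8nAb at 12 h, against 46.0 and 43.6 CPM with IgG, and 32.1 and 37.8 CPM with anti-M8nAb at 24 h, against 46.5 and 45.5 CPM with IgG. MRPS9 passed at both times (log2 fold changes -0.20 and -0.28) and MRPS10 at 24 h alone (-0.08 and -0.40), and in both genes the groups did not overlap. MRPS12, the homologue of the decoding-centre protein S12, fell at both times (-0.24 and -0.34), and its call at 12 h was lost in 9 of 20 alternative settings. MRPS17 had log2 fold changes of -0.41 (SE 0.17, edgeR adjusted p = 0.0542) at 12 h and -0.64 (SE 0.17, edgeR adjusted p = 0.00199) at 24 h at a level under 10 CPM, and 25% of its exon sequence is shared with a gene on its own strand. Among the proteins of the small subunit that bacteria lack, MRPS34 fell to 130 and 131 CPM with anti-M8nAb at 12 h, against 149 and 148 CPM with IgG. At 24 h it was at 125 and 126 CPM with anti-M8nAb and 137 and 154 CPM with IgG, and the log2 fold changes were -0.18 and -0.22. With an offset for GC content neither call was made, at -0.00 and -0.06. MRPS34 and MRPS9 overlap genes on the other strand over 31.2% and 20.3% of their exon sequence.

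The 3 largest rises in the small subunit at 24 h were those of MRPS33, MRPS24 and MRPS5. MRPS33, a protein of the small subunit that bacteria lack, had 40.6 and 41.5 CPM with anti-M8nAb at 12 h, against 29.8 and 32.7 CPM with IgG. At 24 h it had 42.5 and 44.2 CPM with anti-M8nAb and 28.5 and 27.3 CPM with IgG. All 4 anti-M8nAb libraries were above all 4 IgG libraries, with log2 fold changes of 0.39 (SE 0.09, edgeR adjusted p = 0.000475) and 0.64 (SE 0.09, edgeR adjusted p = 1.02e-07), and both calls were kept in 20 of 20 alternative settings. MRPS24, which despite its number is the homologue of bacterial S3, had 17.0 and 17.4 CPM with anti-M8nAb at 12 h, against 12.3 and 13.4 CPM with IgG, and 20.1 and 17.3 CPM with anti-M8nAb at 24 h, against 11.3 and 12.9 CPM with IgG. Its log2 fold changes were 0.42 and 0.63, its groups did not overlap, and 23.2% of its exon sequence is shared with the readthrough gene URGCP-MRPS24. MRPS35, also found in mitochondria only, had 128 and 131 CPM with anti-M8nAb at 12 h, against 118 and 113 CPM with IgG, and 124 and 131 CPM with anti-M8nAb at 24 h, against 101 and 96.4 CPM with IgG. It rose by 0.16 and 0.37 on the log2 scale. MRPS5, at the lowest level per length, passed at 24 h alone (0.29 and 0.48), and 23.3% of its exon sequence is shared with a gene on its own strand. MRPS26 rose at both times (0.22 and 0.24). The call for MRPS5 at 24 h and both calls for MRPS26 were lost with limma on log2(FPKM + 1), and the call for MRPS35 at 12 h was lost in 8 of 20 alternative settings. MRPS2, the homologue of S2, rose at 12 h (0.24) and was at 0.04 at 24 h, and 14.3% of its exon sequence overlaps a gene on the other strand. MRPS6, the homologue of S6, did not pass at either time (-0.13 and 0.08). The plot of levels by library shows 6 genes that fell and 6 that rose.

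**Figure D2:**
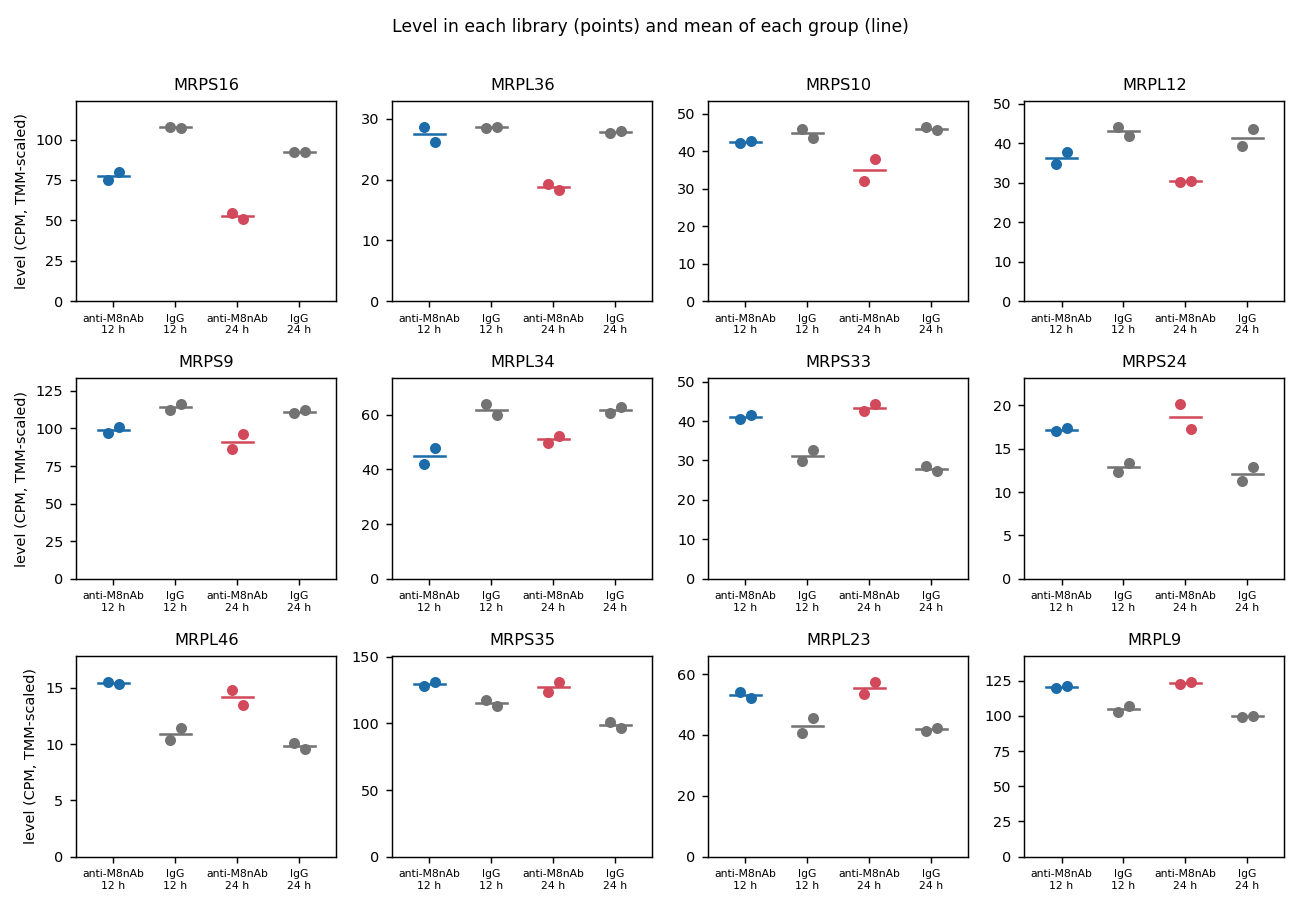
The level of 12 genes in each library in TMM-scaled CPM, on axes that start at 0. Points are libraries, lines are means of 2, with anti-M8nAb in blue at 12 h and red at 24 h and IgG in grey. MRPS16 lies at 51.0 to 79.8 CPM in the 4 anti-M8nAb libraries and at 92.1 to 108 CPM in the 4 IgG libraries, and MRPS33 lies at 40.6 to 44.2 CPM and at 27.3 to 32.7 CPM.

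In the large subunit, 12 of 51 genes rose (23.5%) and 4 fell (7.84%) at 12 h, against 15.8% and 16.4% of all tested genes. At 24 h 9 rose (17.6%) and 10 fell (19.6%), against 21.2% and 21.3% of all tested genes. MRPL36, the homologue of the small bacterial protein L36, had 28.7 and 26.2 CPM with anti-M8nAb at 12 h, against 28.5 and 28.7 CPM with IgG, where the groups overlapped. At 24 h it fell to 19.3 and 18.2 CPM with anti-M8nAb, against 27.7 and 28.0 CPM with IgG. Its log2 fold changes were -0.06 at 12 h and -0.57 (SE 0.10, edgeR adjusted p = 1.13e-05) at 24 h. MRPL34, the homologue of L34, fell at both times. It had 42.0 and 47.8 CPM with anti-M8nAb at 12 h, against 63.8 and 60.1 CPM with IgG, and 49.6 and 52.4 CPM with anti-M8nAb at 24 h, against 60.8 and 63.0 CPM with IgG. It fell by 0.46 (edgeR adjusted p = 7.42e-06) at 12 h and by 0.28 at 24 h, a difference between the times that did not pass (edgeR adjusted p = 0.312). MRPL34 overlaps ABHD8 on the opposite strand over 14.6% of its exons, and its call at 24 h was lost under an offset for GC content.

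At the tunnel through which new proteins leave the ribosome, 1 of 8 genes rose and 1 fell at 12 h, and 2 rose and 2 fell at 24 h. MRPL24, the homologue of L24, had 12.8 and 12.4 CPM with anti-M8nAb at 12 h, against 18 and 17.3 CPM with IgG, and 13 and 11.3 CPM with anti-M8nAb at 24 h, against 15.8 and 16.0 CPM with IgG. It fell at both times (-0.48 and -0.39), while its neighbour at the exit, MRPL23, the homologue of L23, rose. MRPL23 had 54.0 and 52.1 CPM with anti-M8nAb at 12 h, against 40.5 and 45.6 CPM with IgG, and 53.4 and 57.3 CPM with anti-M8nAb at 24 h, against 41.2 and 42.4 CPM with IgG, with log2 fold changes of 0.30 and 0.41. Neither gene's groups overlapped. MRPL45, which holds the ribosome at the inner membrane, was at 0.16 at 12 h and rose by 0.32 at 24 h, and MRPL17 fell by 0.29 at 24 h.

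The stalk recruits translation factors. Of its 5 genes, MRPL10, MRPL11 and MRPL54 were higher at 12 h and MRPL12 was lower at both times. MRPL12, the homologue of the stalk protein L7/L12, had 34.7 and 37.8 CPM with anti-M8nAb at 12 h, against 44.2 and 41.8 CPM with IgG, and 30.3 and 30.5 CPM with anti-M8nAb at 24 h, against 39.4 and 43.5 CPM with IgG. The groups did not overlap and the log2 fold changes were -0.25 and -0.45, but 69.5% of the exon sequence of MRPL12 is shared with another gene on the same strand, so its counts are uncertain. The call for MRPL12 at 12 h was lost in 7 of 20 alternative settings, and with an offset for GC content its value was -0.06. In the central protuberance, which faces the small subunit, 2 of 7 genes were higher at 12 h and 1 at 24 h, and none of the 7 was called lower. The shares higher are 28.6% and 14.3%, against 15.8% and 21.2% of all tested genes. Of all tested genes, 16.4% and 21.3% were lower. MRPL46, found in mitochondria only, rose at both times. It had 15.5 and 15.3 CPM with anti-M8nAb at 12 h, against 10.4 and 11.4 CPM with IgG, and 14.8 and 13.5 CPM with anti-M8nAb at 24 h, against 10.1 and 9.60 CPM with IgG. The log2 fold changes were 0.50 (SE 0.13, edgeR adjusted p = 0.00298) and 0.52 (SE 0.13, edgeR adjusted p = 0.00139). Of the exon sequence of MRPL46, 11.3% is shared with another gene on the same strand.

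MRPL46 shares its promoter region with MRPS11, the homologue of S11. The genes lie on chromosome 15, on the minus and the plus strand, and their RefSeq starts, 88467388 and 88467708, are 320 bases apart. MRPS11 had log2 fold changes of -0.06 and -0.18 and passed at neither time, so of this pair 1 gene was called and the other was not. The difference between the genes was not tested. The middle of the stretch between the RefSeq starts, where the promoter windows of the pair overlap, is written below along the plus strand. It has none of the 4 motifs. In the GENCODE annotation MRPL46 begins at 88467390 and MRPS11 at 88467453, so the printed stretch lies within annotated MRPS11. Outside the stretch, MRPL46 has the YY1 core 8 bases after its RefSeq start, and the window of MRPS11 has none of the 4 motifs.

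MRPS11 and MRPL46, shared (chr15:88467458-88467638, plus strand): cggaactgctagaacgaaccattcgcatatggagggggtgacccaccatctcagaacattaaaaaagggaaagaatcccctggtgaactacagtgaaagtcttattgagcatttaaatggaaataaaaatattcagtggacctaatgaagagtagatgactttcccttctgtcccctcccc

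Elsewhere in the large subunit, MRPL15, the homologue of L15, had 80.1 and 84.8 CPM with anti-M8nAb at 12 h, against 65.8 and 67.2 CPM with IgG, and 66.7 and 67.9 CPM with anti-M8nAb at 24 h, against 57.9 and 57.5 CPM with IgG. It rose by 0.31 and 0.22. MRPL9, the homologue of L9, had 120 and 121 CPM with anti-M8nAb at 12 h, against 103 and 107 CPM with IgG, and 123 and 124 CPM with anti-M8nAb at 24 h, against 99.5 and 100 CPM with IgG. It rose by 0.20 and 0.30, and 30.5% of its exon sequence overlaps a gene on the other strand. MRPL58, a peptidyl-tRNA hydrolase that is built into the large subunit and frees stalled chains, had 45.9 and 46.7 CPM with anti-M8nAb at 12 h, against 36.1 and 38.0 CPM with IgG, and 35.4 and 38.1 CPM with anti-M8nAb at 24 h, against 31.6 and 30.6 CPM with IgG. The log2 fold changes of MRPL58 were 0.32 and 0.24, with no overlap of the groups. MRPL37 rose at both times (0.19 and 0.24) and MRPL3, the homologue of L3, at 24 h (0.06 and 0.17). The calls for MRPL37 at both times and for MRPL3, MRPL15 and MRPL58 at 24 h were lost with limma on log2(FPKM + 1).

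Some symbols do not say where the protein sits. MRPS30 is a protein of the large subunit in spite of its letter, and it fell at 24 h (-0.08 and -0.30). MRPS36 is now known as a part of the 2-oxoglutarate dehydrogenase complex rather than of the ribosome, and it did not pass at either time (0.08 and 0.08). MRPS18A, MRPS18B and MRPS18C are 3 relatives of the single bacterial protein S18, and each sits at its own place, MRPS18A in the large subunit. MRPS18A fell at both times (-0.24 and -0.33), MRPS18C at 24 h (-0.12 and -0.29), and MRPS18B did not pass (0.02 and -0.11). MRPS18A and MRPS18C overlap genes on the other strand over 50.9% and 40.2% of their exon sequence, and the call for MRPS18A at 12 h was lost in 9 of 20 alternative settings. By origin, 12 of the 46 genes with a bacterial homologue rose and 6 fell at 12 h, and 7 and 13 did so at 24 h. Of the 31 found in mitochondria only, 8 rose and 2 fell at 12 h, and 8 and 5 did so at 24 h. Their median log2 fold changes were 0.07 and 0.10, against 0.05 and -0.00 for the 46. In this split MRPS18A and MRPS18B were counted among the 31, although they are relatives of S18, and MRPS18C among the 46. The falls of MRPS18A at both times are thus among those of the 31.

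The times had much in common. Of the 20 genes that rose at 12 h, 12 also rose at 24 h (60.0%, against 63.6% over all tested genes), and they were 80% of the 15 that rose at 24 h, against 47.6% over all tested genes. All 8 genes that fell at 12 h also fell at 24 h, where they made up 44.4% of the 18, against 50.2% over all tested genes, and over all tested genes 65.4% of those that fell at 12 h also fell at 24 h. None of the 78 genes was called in opposite directions at the 2 times, and 37 were called at neither. Among all 20165 tested genes, 86 rose at 12 h and fell at 24 h, 77 did the reverse, and 9457 were called at neither. The difference between the responses was tested on its own. It passed in 6 of the 78 genes (7.69%), all more negative at 24 h, against 6.54% of all tested genes more negative and 5.79% more positive. At an unadjusted p under 0.05 edgeR gave 9 genes more negative and 3 more positive, and DESeq2 and limma called none more positive after adjustment. Without IgG 24 h replicate 2, edgeR called 1 gene, MRPL41, more positive and 4 more negative.

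These 6 genes were MRPL1, MRPL36, MRPL49, MRPS16, MRPL30 and MRPS27. MRPL1, the homologue of the L1 protein next to the exit site for tRNA, had 34.4 and 35.5 CPM with anti-M8nAb at 12 h, against 31.3 and 32.7 CPM with IgG, and 18.5 and 19.2 CPM with anti-M8nAb at 24 h, against 23.2 and 26.2 CPM with IgG. The libraries with anti-M8nAb were above IgG at 12 h and below it at 24 h. Its log2 fold changes were 0.13 and -0.39, and they differed by -0.51 (edgeR adjusted p = 0.00999). MRPS27, a protein with the pentatricopeptide repeats typical of RNA-binding proteins of organelles, had 156 and 150 CPM with anti-M8nAb at 12 h, against 133 and 127 CPM with IgG, and 127 and 129 CPM with anti-M8nAb at 24 h, against 129 and 134 CPM with IgG. It rose at 12 h (0.23) and was at -0.04 at 24 h. MRPL30 rose at 12 h (0.19) and did not pass at 24 h (-0.17), while MRPL49 did not pass at 12 h (0.08) and fell at 24 h (-0.26). Of the exon sequence of MRPL30, 11.8% is shared with a gene on its own strand. MRPL49 overlaps SYVN1 on the other strand over 11.6% of its exon sequence. At the other end, the 5 positive differences with the smallest p were those of MRPL41 (0.29), MRPS33 (0.24), MRPS6 (0.21), MRPS35 (0.21) and MRPL34 (0.18), and none of these passed. Without IgG 12 h replicate 1, none of the 78 differences passed in edgeR (8 more negative and 1 more positive at an unadjusted p under 0.05), and without anti-M8nAb 12 h replicate 1, 3 passed.

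**Figure D3:**
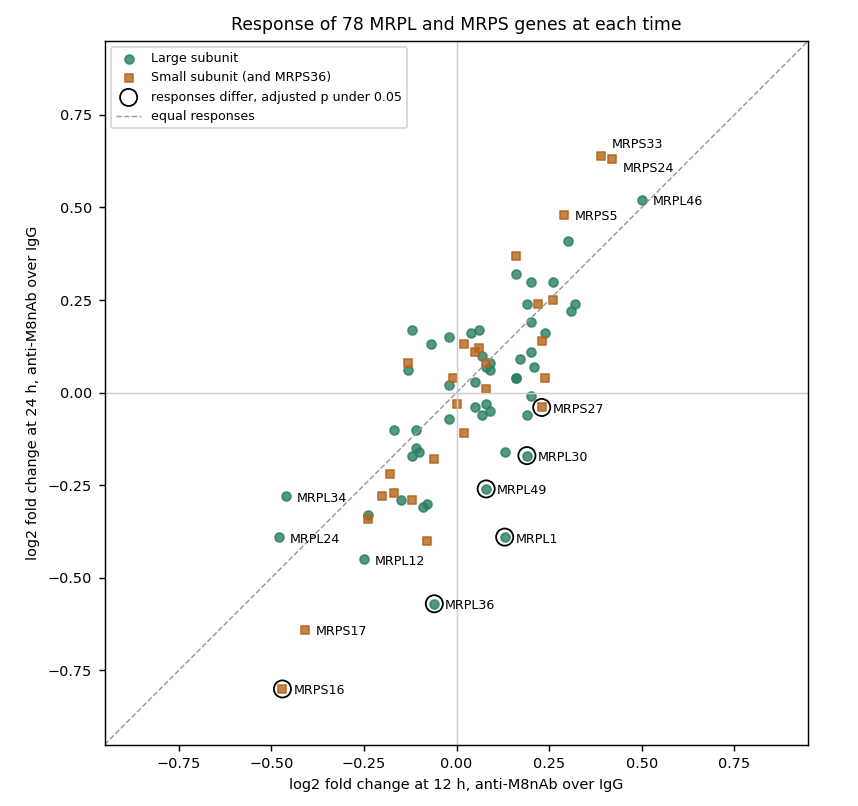
The log2 fold change of each of the 78 genes at 12 h (horizontal) and 24 h (vertical), anti-M8nAb over IgG, with large-subunit genes as green circles and small-subunit genes with MRPS36 as orange squares. Rings mark the 6 genes whose responses differed, and all 6 lie below the dashed line of equal responses.

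Some of the genes differed between the IgG groups. Between IgG at 24 h and IgG at 12 h, 9 of the 78 genes were lower and none higher (11.5%, against 6.64% of all tested genes lower and 7.01% higher). At an unadjusted p under 0.05 edgeR gave 14 lower and 0 higher, and DESeq2 and limma called none higher after adjustment. With an offset for GC content, 1 gene, MRPS6, was higher and 12 were lower. Without that offset, the 9 lower genes were MRPL1, MRPL3, MRPL15, MRPL45, MRPL58, MRPS5, MRPS7, MRPS16 and MRPS35, with log2 fold changes of -0.46 to -0.19. This comparison uses the same IgG libraries as those above and is not independent of them. The number of genes called was 1 without IgG 12 h replicate 2, 2 without IgG 12 h replicate 1, and 3 without either of the IgG 24 h libraries.

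The other genes of mitochondrial translation also moved in both directions. Of the 5 mitoribosomal proteins with other symbols, GADD45GIP1 rose (0.24) and DAP3, a small-subunit GTPase, fell (-0.17) at 24 h, and none passed at 12 h. Of 12 translation factors, 1 was higher and 1 lower at 12 h, and 2 and 3 at 24 h. MRRF, the recycling factor, rose at both times (0.27 and 0.27), MTFMT, which formylates the initiator tRNA, fell at both (-0.46 and -0.39), the initiation factor MTIF2 rose at 24 h (0.39) and the release factor MTRF1 fell at 24 h (-0.64). Of 26 assembly factors, 6 were higher (23.1%) and 1 lower (3.85%) at 12 h, and 4 (15.4%) and 5 (19.2%) at 24 h. The GTPase MTG2 rose at 12 h alone (0.69 and -0.07), the helicase DDX28 fell at 24 h (0.03 and -0.97), and RCC1L rose at both times (0.20 and 0.40). Of 19 tRNA synthetases, 4 were higher (21.1%) and 2 lower (10.5%) at 12 h, and 7 (36.8%) and 5 (26.3%) at 24 h. Among them WARS2 rose (0.63 and 0.87) and MARS2 fell at 24 h (-0.04 and -0.74). Of 14 factors for transcription and RNA stability in mitochondria, 2 were higher (14.3%) and 1 lower (7.14%) at 12 h. At 24 h 2 were higher (14.3%) and 6 lower (42.9%). TRMT10C, a subunit of mitochondrial RNase P, fell at 24 h (-0.14 and -0.96), as did MTERF1 (0.01 and -0.96) and LRPPRC, which stabilizes mitochondrial mRNAs (-0.10 and -0.26).

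Of 11 transcription factors and coactivators of nuclear genes for mitochondrial proteins, 5 were higher (45.5%) and 1 lower (9.09%) at 12 h. At 24 h 2 were higher (18.2%) and 3 lower (27.3%). All tested genes stood at 15.8% higher and 16.4% lower at 12 h, and at 21.2% and 21.3% at 24 h. MYC rose (0.90 and 0.78), as did TFE3 (0.42 and 0.58), and the coactivator PPARGC1B fell (-1.06 and -1.23). The factors whose motifs were counted moved little. GABPA rose at 12 h (0.21) and was at 0.17 at 24 h, YY1 was at -0.05 at 12 h and fell by 0.15 at 24 h, and NRF1 did not pass at either time (-0.14 and -0.11).

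The 13 mRNAs of the mitochondrial genome, the templates of the mitoribosome, rose in 4 cases (30.8%) and fell in 2 (15.4%) at 12 h. At 24 h they rose in 1 case (7.69%) and fell in 7 (53.8%), and the medians were 0.09 and -0.16. All tested genes stood at 15.8% higher and 16.4% lower at 12 h, and at 21.2% and 21.3% at 24 h. In 8 of the 13 (61.5%) the response was more negative at 24 h than at 12 h, against 6.54% of all tested genes. MT-ND1 fell at both times (-0.17 and -0.64), MT-ND6, the only one of the mRNAs on the light strand, rose at 12 h and fell at 24 h (0.56 and -0.28), and MT-CO1 rose at both times (0.21 and 0.16). Of the 2 rRNAs, MT-RNR1 rose at 12 h (0.13) and MT-RNR2 at 24 h (0.12). The proteins of the cytosolic ribosome were mostly higher. Of 81 cytosolic ribosomal protein genes tested, 42 rose (51.9%) and 1 fell (1.23%) at 12 h, while 67 rose (82.7%) and 1 fell (1.23%) at 24 h. The medians were 0.12 and 0.18. Of the 78 mitoribosomal genes, 20 rose and 8 fell at 12 h, and 15 rose and 18 fell at 24 h. The plot of fold changes by list sets these lists side by side, and no test was made of one list against the other.

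**Figure D4:**
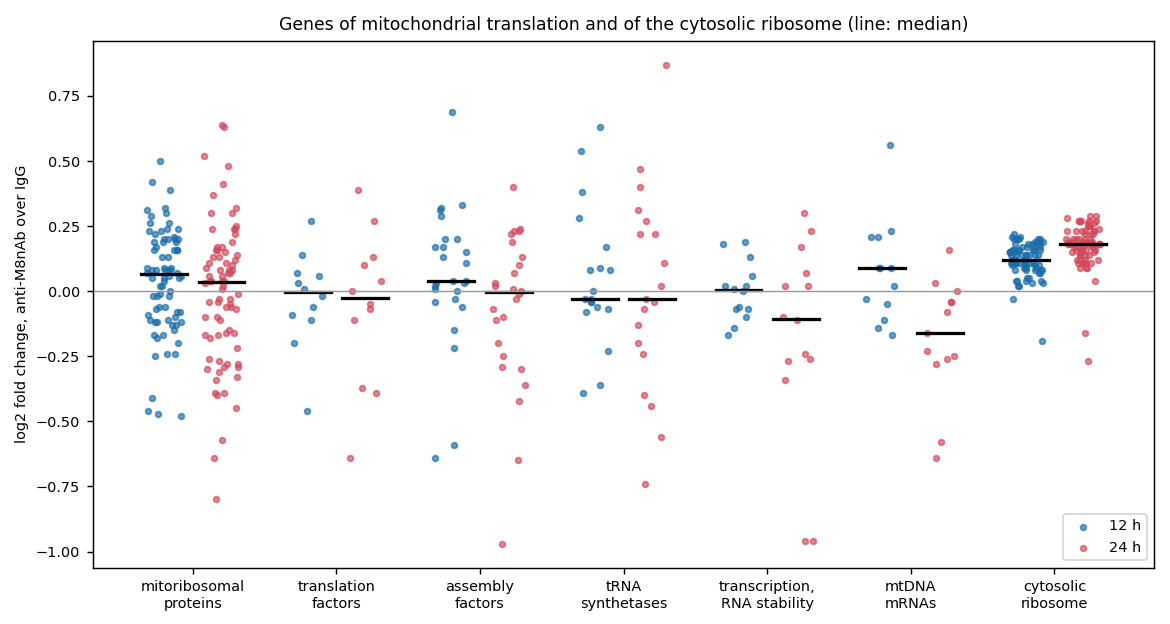
The log2 fold change of anti-M8nAb over IgG (vertical) for each gene of 7 lists, blue at 12 h and red at 24 h, with the median of each list as a black line. The medians of the mitoribosomal genes are 0.07 and 0.04, those of the mRNAs of the mitochondrial genome (mtDNA) 0.09 and -0.16, and those of the cytosolic ribosomal proteins 0.12 and 0.18.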

How the data were processed

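Per the authors' methods, reads were trimmed (Trimmomatic), mapped to GRCh38.p14 by 2-pass STAR, cleared of duplicates (Picard) and assigned to Ensembl genes by HTSeq. The authors deposited the resulting counts and, from RNAnorm, FPKM. The submitters' notes also name FastQC 0.11.9 and GATK. Whether strand was used in counting is not given in the sources used here. Symbols, coordinates and overlaps came from GENCODE 44. Of the columns in each file, 4 were left unused. Among the counts are 1005 lines with a blank name, which were left out of library sizes and tests: all but the last 5 hold 0.192 to 0.21% of a library's counts, and the largest holds 49.3 to 50.2% of all.

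Counts were filtered (filterByExpr), scaled by TMM and fitted with a mean per group in edgeR 4.0.16 (R 4.3.3). The quasi-likelihood F test was two-sided, with Benjamini-Hochberg adjustment over 20165 genes, and was tested on simulated data. The alternatives (limma 3.58.1 on FPKM with a pseudocount of 1 or 0.1, DESeq2 1.42.0, other filters, scaling and gene sets, GC, block, 2-fold and leaving out libraries) stand in the closing section. Named genes were the 10 with the smallest adjusted p on each side at each time, the 3 largest changes on each side, the 5 smallest p for the difference between times on each side, the 5 highest and 3 lowest mean FPKM the MRPS18 genes and symbols that do not say their place, and in each other list some of the 3 smallest adjusted p. NRF1, GABPA, YY1, MT-CO1, MRPS11, the genes named by count and the promoters printed were chosen after their values were seen. The members and lists were chosen with earlier results of these data known.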

Additional observations from a re-analysis of the deposited data

Results flagged for a closer look

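In 6 of the 78 genes the response to anti-M8nAb at 24 h differed from that at 12 h by a test of the difference itself (edgeR's quasi-likelihood F test, Benjamini-Hochberg adjustment over 20165 genes). The log2 response at 24 h minus that at 12 h was -0.51 for MRPL1 (edgeR adjusted p = 0.00999), -0.51 for MRPL36 (edgeR adjusted p = 0.0122), -0.34 for MRPL49 (edgeR adjusted p = 0.0143), -0.33 for MRPS16 (edgeR adjusted p = 0.0147), -0.36 for MRPL30 (edgeR adjusted p = 0.0151) and -0.27 for MRPS27 (edgeR adjusted p = 0.0242). Without IgG 12 h replicate 1, none of the 6 passed.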

How the results depend on the processing

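With no filter on low counts, 10 of the 78 genes rose and 5 fell at 12 h (calls were 5.65% and 6.03% of the 41621 genes then tested), 2 differed between times, and 4 changed between the IgG times. Limma on log2(FPKM + 1) called 8 higher at 12 h and 8 at 24 h and 2 between the IgG times, log2(FPKM + 0.1) called 8, 8 and 1, and log2(FPKM + 1) over all genes called 4 higher and 3 lower at 12 h, 7 higher at 24 h, 1 between times and 0 between the IgG times. At a 2-fold threshold every count was 0. On all 3 FPKM settings the medians were 0.00 at 12 h and -0.05 at 24 h, and summed FPKM changed by -1.85% and -5.06%. With 1 library left out, the counts ranged from 3 to 21 higher and from 3 to 8 lower at 12 h, from 12 to 15 higher and from 17 to 18 lower at 24 h, from 0 to 6 between times and from 1 to 9 between the IgG times, and the medians from 0.05 to 0.09 and from -0.01 to 0.04. Replicate numbers did not pair the libraries (correlations of deviations of -0.037 to 0.027), and with a replicate block 16 genes rose and 8 fell at 12 h, 15 rose and 18 fell at 24 h, 6 differed between times and 9 between the IgG times, with medians of 0.06 and 0.03. With an offset for GC the counts of calls were 23, 8, 17 and 20, of which 19, 4, 14 and 16 were among the 20, 8, 15 and 18 genes above. Over 38 of the mitoribosomal genes named, at both times, 1381 values kept their direction and side of the threshold, 24 passed only in the alternative, 115 passed only in the fit reported, and none reversed while called. The cause of these shifts was not tested. With 2 libraries a group the median SE was 0.076, and how small a change could be detected was not tested. A gene that did not pass is not shown to be unchanged.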
